A study of Mus musculus with 18 samples.

Results

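Dorsal root ganglia (DRG) of C57BL/6 mice at peak disease were compared with DRG of mice without disease, across all genes expressed in them. The DRG came from lumbar levels L3-L5, and the comparison used 3 libraries labelled peak disease (PID21) and 3 labelled no disease, which are 6 of the 18 libraries of the study. The other libraries were 3 of DRG during recovery (PID42) and 9 of sciatic nerve at the same stages. Total RNA was sequenced in bulk, and the title of the study asks whether types of sensory neuron differ in vulnerability when axons lose their glial contacts. The labels give C57BL/6 as the strain background of every library. How the disease was produced, what PID stands for and the age, sex and genotype of the mice were not stated in the sources used. No label says that replicates are different animals, and every p-value therefore reflects the spread of these samples alone, which may be technical.

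A DRG holds the cell bodies of sensory neurons, the satellite glia that wrap each cell body, and the axons that run to the nerve and to the spinal cord with their myelinating and non-myelinating Schwann cells. Macrophages, vessels and connective tissue lie between them. When a sensory axon is damaged, its cell body is known to switch on a set of transcription factors, growth-associated proteins and neuropeptides, led by Atf3, and to lower many genes of its normal signalling. Macrophages are known to gather in the ganglion at the same time.

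The 6 libraries held 14887230 to 19172975 counts, and each peak library had fewer than each no disease library. Levels are given as CPM, counts relative to a fixed library size and scaled by the TMM factors of the 9 DRG libraries. The sensory neuron genes Isl1 (74.4 to 98.8 CPM), Prph (853 to 1223 CPM) and Tubb3 (1684 to 2115 CPM), the satellite glia gene Fabp7 and the Schwann cell gene Prx were present in all 6. Several libraries stood apart in transcripts of other tissues. The 12 skeletal muscle genes summed to 309 CPM in no disease replicate 3 and to 5.54 to 24.0 CPM in the other libraries, and the 10 members that could be tested had fold changes of -3.91 to -0.73 on the log2 scale, 0 of them called. The 16 genes of oligodendrocytes and spinal cord summed to 290 CPM in peak replicate 1, to 162 and 134 CPM in peak replicates 2 and 3, and to 125 to 137 CPM with no disease. Among them, the oligodendrocyte gene Mobp was at 50.3, 8.60 and 4.26 CPM in peak replicates 1, 2 and 3 and at 1.80 to 4.85 CPM with no disease. In the same order, Slc6a5 was at 3.15, 1.62 and 0.367 CPM (0 to 0.377 with no disease) and Slc1a2 at 83.2, 35.6 and 16.3 CPM (9.93 to 21.3). For Aspa, Aqp4 and Gad1 the groups overlapped. The motor neuron gene Mnx1 was at 0 in all 6. The 7 red blood cell genes summed to 356 CPM in peak replicate 3 and to between 59.997 and 150 CPM in the other libraries. A single transcript, AY036118, whose exons overlap ribosomal RNA sequence, took 5.04% to 13.6% of the counts. Peak replicate 2 lay at -25.1 on the second principal component of the DRG libraries (24.3% of the variance), apart from peak replicates 1 and 3 at -4.61 and -6.78.

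**Figure D1:**
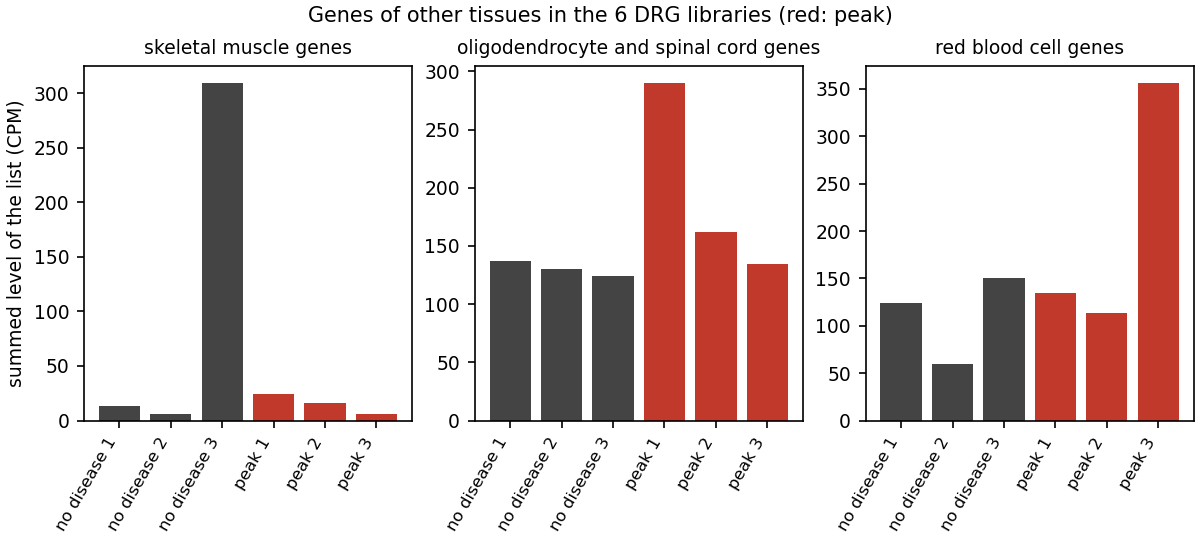
Summed level of the genes of 3 other tissues in the 6 DRG libraries, in CPM on a linear axis with 1 bar per library and no error bar. Muscle transcripts stand out in no disease replicate 3 (309 CPM), oligodendrocyte and spinal cord transcripts in peak replicate 1 (290 CPM) and red blood cell transcripts in peak replicate 3 (356 CPM).

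At peak, 728 of 16482 tested genes stood above their no disease level and 529 below it, or 4.42% and 3.21% of the genes (7.63% together). The rises were larger than the falls. The median log2 fold change was 0.72 among the genes called higher and -0.41 among those called lower, against 0.01 over all genes tested. Of the rises 223 were beyond 2-fold and 55 beyond 4-fold, whereas 22 of the falls were beyond 2-fold and 6 beyond 4-fold. A gene is called here where its adjusted p was under 0.05 in the quasi-likelihood test of edgeR, adjusted by Benjamini-Hochberg over all genes tested. The groups did not overlap in any of the 728 and 529 called genes, against 33.48% without overlap over all genes tested. For a called gene, groups that are apart therefore add no support beyond the call. The same threshold on the q-values of the authors' deposited table gave 986 higher and 548 lower, and 1021 genes were called by both in the same direction. Leaving out 1 library reduced the counts of higher and lower genes to 195 and 119 without no disease replicate 1, to 328 and 268 without replicate 2 and to 281 and 128 without replicate 3. They were 473 and 265 without peak replicate 1, 429 and 307 without replicate 2 and 417 and 180 without replicate 3.

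**Figure D2:**
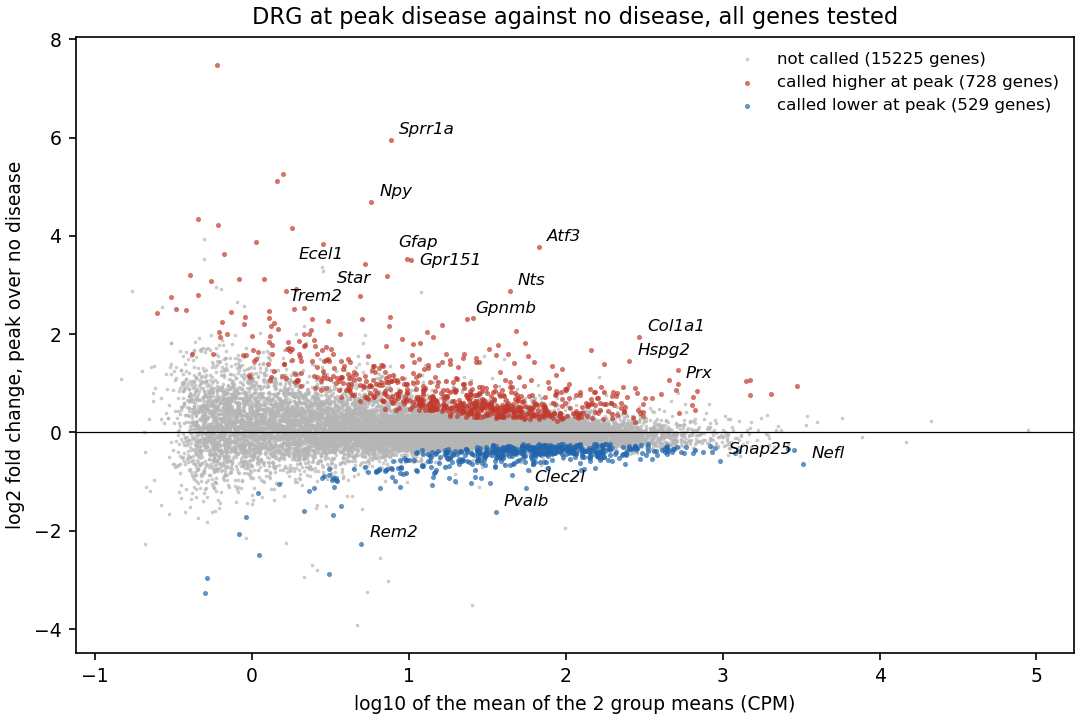
Log2 fold change from no disease to peak against the log10 of the mean level in CPM, with 1 point per gene tested. Red points are the 728 genes called higher and blue points the 529 called lower. The named points include Snap25 (-0.57) and Nefl (-0.64), which lie near 0 on this axis. The highest point is Anxa10 (7.48), which had no count in the no disease libraries, so that its fitted value depends on the prior count, and which was chosen after its values were seen.

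The 15 largest rises among called genes that averaged 5 CPM or more, with no overlap between groups, held injury genes of sensory neurons such as Sprr1a and Atf3, macrophage genes such as Ms4a7 and Cd68, and others such as Gfap, Star, Emid1, Tnc and Fst. Sprr1a (ENSMUSG00000050359, GRCm38 chromosome 3, 92483952 to 92485895), a small proline-rich protein that promotes axon outgrowth, stood at 0.485, 0.0559 and 0.168 CPM in no disease replicates 1, 2 and 3 and at 7.501, 21.4 and 16.6 CPM in peak replicates 1, 2 and 3. The lowest peak library was well above the highest no disease library, and peak replicate 1 was the lowest of the peak group. The log2 fold change of Sprr1a was 5.95 ± 0.62 (SE, adjusted p = 0.00136, edgeR). Atf3 (ENSMUSG00000026628, chromosome 1, 191170296 to 191218039), the stress-induced transcription factor, was at 8.78, 7.66 and 11.4 CPM with no disease and at 77.2, 156 and 144 CPM at peak. It rose by 3.76 ± 0.26 on the log2 scale (adjusted p = 0.000245), and its groups were far apart. The transcription factor Sox11, which is active in developing and regenerating neurons, went from 18.2, 17.4 and 18.7 CPM to 36.0, 72.1 and 53.04 CPM (log2 fold change 1.57 ± 0.21, adjusted p = 0.00408). Sprr1a, Atf3 and Sox11 were called in each fit that left out 1 library.

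Of 15 transcription factors known to respond to axon injury, Atf3 and Sox11 were called higher and none lower, with a median log2 fold change of 0.29. Jun, a partner of Atf3 on DNA, was at 47.0, 35.6 and 47.5 CPM with no disease and at 47.9, 88.4 and 64.5 CPM at peak. Peak replicate 1 lay just above the no disease libraries, and the difference of 0.63 ± 0.20 was not called (adjusted p = 0.0882). Without peak replicate 1 it was called (0.0363).

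Of 25 effectors of axon regeneration, 11 were called higher and 1 lower, with a median of 0.71. The receptor Gpr151, which marks injured sensory neurons, was at 1.17 to 1.78 CPM with no disease and at 9.24, 23.1 and 21.2 CPM at peak (3.52 ± 0.34, adjusted p = 0.000987). Ecel1, a membrane protease of the neprilysin family, was at 0.559 to 1.07 CPM with no disease and 5.69, 13.02 and 10.1 CPM at peak (3.43 ± 0.35, adjusted p = 0.0013). Neither gene overlapped between the groups. The adhesion protein Flrt3 rose by 1.81 ± 0.18, the beta-tubulin Tubb6 by 1.61 ± 0.15 and Gadd45a by 1.43 ± 0.21, whose exons overlap those of E230016M11Rik. Gap43, a protein of growth cones, was abundant in both groups, at 111 to 119 CPM with no disease and 121, 136 and 143 CPM at peak (0.21 ± 0.08, adjusted p = 0.121). The groups of Gap43 did not overlap, which held for 27.99% of all genes that were not called.

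Star and Emid1 were among the same 15. Star, which carries cholesterol into mitochondria for steroid synthesis, was at 1.34 to 1.57 CPM with no disease and at 10.7, 13.9 and 14.5 CPM at peak (3.18 ± 0.23, adjusted p = 0.000274). Emid1, a secreted protein with a collagen-like stretch, was at 7.38 to 9.75 CPM and then at 34.0, 49.4 and 45.2 CPM (2.34 ± 0.19, adjusted p = 0.00044). Both were clearly apart between the groups and were called in every fit without 1 library.

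Upstream sequences were read for the 15 largest rises, because Atf3 and Jun are known to bind the AP-1 site TGACTCA. RefSeq promoters on GRCm38.p6 (250 bases before to 50 after a start) were at hand for 12 of them, and 4 held TGACTCA on either strand, namely Sprr1a, Nts, Cd68 and Gpnmb. The windows of the 3 genes with the site before the start are printed 5′ to 3′ on the strand of the gene, 250 bases long and with the site in capitals, which reads TGAGTCA on this strand. The site begins 146 and 116 bases before the start in Sprr1a (chr3:92485882-92486131, minus strand), 207 bases before it in Nts (chr10:102490419-102490668, minus strand) and 149 and 24 bases before it in Cd68 (chr11:69666171-69666420, minus strand).
Sprr1a: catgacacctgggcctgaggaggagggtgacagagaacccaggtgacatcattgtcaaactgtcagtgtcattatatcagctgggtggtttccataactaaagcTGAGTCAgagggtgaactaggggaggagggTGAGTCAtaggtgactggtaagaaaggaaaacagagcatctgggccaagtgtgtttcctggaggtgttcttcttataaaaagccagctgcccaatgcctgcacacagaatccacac
Nts: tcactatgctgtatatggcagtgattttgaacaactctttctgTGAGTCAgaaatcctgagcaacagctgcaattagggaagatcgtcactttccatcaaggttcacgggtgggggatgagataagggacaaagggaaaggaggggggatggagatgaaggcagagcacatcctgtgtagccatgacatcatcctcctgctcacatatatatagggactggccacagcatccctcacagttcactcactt
Cd68: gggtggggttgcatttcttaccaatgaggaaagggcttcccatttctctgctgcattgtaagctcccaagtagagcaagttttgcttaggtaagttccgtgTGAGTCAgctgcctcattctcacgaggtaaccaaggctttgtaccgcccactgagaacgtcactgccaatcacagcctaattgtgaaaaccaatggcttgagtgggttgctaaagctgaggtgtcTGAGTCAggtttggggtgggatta
Over all tested genes with a promoter in the table, 4.77% of 11818 held TGACTCA, against 7.39% of the 541 called higher and 5.75% of the 400 called lower. The related site TGACGTCA stood in 3.39% of tested genes, 1.85% of those called higher and 6.50% of those called lower. Altogether 8 motifs were counted. Among tested genes and those called higher, TGACGCAA stood in 1.02% and 0.739%, TTCNNNGAA in 8.28% and 6.65% and CCAAT in 42.5% and 43.3%. For GCCNNNGGG the shares were 42.3% and 46.6%, for AACAAT 7.45% and 7.95% and for TATAAA 9.51% and 11.1%. These shares were not tested. A match is a description of these letters and not evidence of binding.

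Of 12 neuropeptides tested, 4 were called higher and 1 lower, and the median was -0.33. Npy and Nts rose steeply, whereas Adcyap1 and Gal, also called higher, rose by 0.58 and 0.66. The 4 higher calls became 2 without no disease replicate 3 and 3 without each other library in turn. The 1 lower call became 3 without peak replicate 1 and 0 without each other. With all 18 libraries in 1 fit 2 were called higher and 0 lower. Npy (ENSMUSG00000029819, chromosome 6, 49822710 to 49829507), a peptide that sensory neurons make little of until they are injured, was at 0.701, 0.335 and 0.224 CPM with no disease and at 4.82, 17.5 and 10.8 CPM at peak. All peak libraries were above all no disease libraries, with peak replicate 1 the lowest (4.69 ± 0.55, adjusted p = 0.00217). Nts (ENSMUSG00000019890, chromosome 10, 102481756 to 102490486), which encodes neurotensin, was at 11.1, 8.95 and 11.6 CPM and then at 62.1, 78.7 and 91.5 CPM (2.88 ± 0.15, adjusted p = 3.1e-05). Adcyap1, which encodes the peptide PACAP, was at 110 to 126 CPM with no disease and 158, 200 and 160 CPM at peak (0.58 ± 0.10, adjusted p = 0.00893), and was not called without no disease replicate 3 (0.0514) or with all 18 libraries in 1 fit (0.369). The groups of Nts and Adcyap1 did not overlap.

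The peptides of uninjured nociceptors, Calca (CGRP) and Tac1 (substance P), were not called. For both, each peak library lay below each no disease library, and groups were apart in 27.99% of all uncalled genes. Calca was at 1275, 1112 and 1254 CPM with no disease and 1089, 885 and 933 CPM at peak, a difference of -0.32 ± 0.10 that was not called (adjusted p = 0.0654). It was called without peak replicate 1 (0.0405). Tac1 was at 347, 308 and 311 CPM and at 288, 253 and 226 CPM (-0.33 ± 0.12, adjusted p = 0.108). Vip and Cck, peptides induced by axon injury in rodents, had too few counts to be tested.

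Among 12 secreted neurotrophic and interleukin 6 family factors, 2 were called higher and 0 lower (median 0.50), also whichever 1 library was left out. Csf1, the growth factor of macrophages and microglia, was at 12.6, 11.4 and 11.4 CPM with no disease and at 24.3, 37.6 and 26.6 CPM at peak (1.33 ± 0.15, adjusted p = 0.00176). Each peak library of Csf1 exceeded each no disease library, and it was called in every fit without 1 library. Of 15 receptors of these families, 1 was called, the GDNF co-receptor Gfra1 (147 to 149 CPM against 195, 287 and 256 CPM, 0.74 ± 0.13, adjusted p = 0.0113). Without no disease replicate 1 or 3 it was not called (0.0602 and 0.0551). The neurotrophin receptors Ntrk2 (-0.09 ± 0.13, adjusted p = 0.699) and Ntrk3 (0.65 ± 0.27, adjusted p = 0.174) were not called. Ntrk3, the receptor of proprioceptors, was at 315 to 412 CPM with no disease and 515 to 648 CPM at peak, without overlap, and was called when the 6 libraries were fitted alone (0.00992). Such a lack of overlap held for 27.99% of all uncalled genes. The factor Fst, which binds and blocks activin, rose from 2.69 to 2.75 CPM with no disease to 7.77, 16.8 and 12.05 CPM at peak (2.16 ± 0.26, adjusted p = 0.00248), again lowest in peak replicate 1.

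Some genes of proprioceptors and large-diameter mechanoreceptors were among the falls. Of 21 tested, 6 were called lower and 0 higher, with a median of -0.41, and 3 were lower and 1 higher with all 18 libraries in 1 fit. The other 15 were not called, and among them Ntrk3 (0.65), Spp1 (0.40), Runx3 (0.36) and Maf (0.35) lay above 0. Pvalb (ENSMUSG00000005716, chromosome 15, 78191114 to 78206400), the calcium buffer of proprioceptors, was at 50.6, 39.8 and 72.0 CPM with no disease and at 23.4, 13.02 and 16.3 CPM at peak. The groups did not overlap, and no disease replicate 3, which also held the most muscle transcripts, was the highest (-1.62 ± 0.24, adjusted p = 0.00586). Fast muscle makes Pvalb as well, and without no disease replicate 3 the change was -1.36 (adjusted p = 0.0252). The calcium-binding proteins Necab2 (8.30 to 9.62 CPM against 5.02, 3.36 and 4.04 CPM, -1.12 ± 0.16, adjusted p = 0.00542) and Calb1 (55.9 to 62.5 CPM against 30.1, 37.9 and 28.6 CPM, -0.86 ± 0.11, adjusted p = 0.00277) fell too. Pvalb, Necab2 and Calb1 were called whichever 1 library was left out, but Calb1 was not called when all 18 libraries were fitted together (0.0976). Nefh, the heavy neurofilament of large axons, was at 1643, 1276 and 1570 CPM with no disease and at 942, 1232 and 1041 CPM at peak. Each peak library of Nefh was below each no disease library, but the difference was not called (-0.48 ± 0.22, adjusted p = 0.207). Groups were apart in 27.99% of all uncalled genes.

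Among called genes of at least 5 CPM on average whose groups do not overlap, the largest fall was that of Rem2, a small GTPase that holds back voltage-gated calcium channels. It was at 10.3, 6.21 and 8.30 CPM with no disease and at 1.47, 1.93 and 1.76 CPM at peak, with all peak values far below the no disease values (-2.26 ± 0.22, adjusted p = 0.000987). The lectin-like membrane protein Clec2l went from 79.2, 61.8 and 89.1 CPM to 39.1, 27.97 and 38.1 CPM (-1.13 ± 0.17, adjusted p = 0.00633). Chchd10, a mitochondrial protein whose exons overlap those of Gm867 and Mmp11, was at 32.2 to 35.3 CPM and then at 16.2 to 16.8 CPM (-1.02 ± 0.09, adjusted p = 0.00044). The peak values of Chchd10 lay close together and far below the no disease values. Others of the 15 largest falls were Tmem72 (-1.04 ± 0.14), Wdr72 (-0.99 ± 0.15), the lipid carrier Pctp (-0.93 ± 0.13), and Hapln1 (-0.93 ± 0.15), which links hyaluronan to proteoglycans of the matrix around neurons. All of these were called in each fit without 1 library, and with all 18 libraries in 1 fit Hapln1 was not (0.0932).

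Nociceptor and itch genes were called in numbers close to the shares of all genes (3.21% lower and 4.42% higher) for 1 list and above them for the other. Of 18 non-peptidergic and itch genes 1 was called lower (median -0.22), and of 11 peptidergic genes 2 were called higher and 1 lower (median -0.28). Without 1 library at a time the 2 higher calls of the peptidergic genes became 0 or 1, their 1 lower call 0 or 2, and the 1 lower call of the others 0 to 2. With DESeq2 the lower calls were 3 for the peptidergic and 5 for the other genes, and with all 18 libraries in 1 fit all of these calls were lost. Mrgprd, a receptor of non-peptidergic nociceptors, was at 171 to 191 CPM with no disease and 135 to 157 CPM at peak (-0.35 ± 0.10, adjusted p = 0.0545). Its groups did not overlap, as in 27.99% of all uncalled genes, and it was called when the 6 libraries were fitted alone (0.0258). The heat-activated channel Trpv1 was at 205, 191 and 158 CPM and at 159, 170 and 125 CPM (-0.28 ± 0.14, adjusted p = 0.222), with the groups overlapping. Th, which marks C low-threshold mechanoreceptors, was at -0.24 ± 0.09 (adjusted p = 0.119), and 0 of 7 genes of that class were called.

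Of 18 transcription factors that define sensory neurons, 5 were called lower and 1 higher, and the median was -0.19. Pou4f3, a POU-domain factor of sensory neurons, was at 25.2, 20.9 and 22.3 CPM with no disease and at 15.1, 16.1 and 13.7 CPM at peak (-0.61 ± 0.10, adjusted p = 0.00856). It was called in each fit without 1 library, but not with all 18 libraries in 1 fit (0.0885). Ldb2, a cofactor of LIM-domain factors, was at 95.9 to 101 CPM and then at 75.4 to 81.5 CPM (-0.33 ± 0.07, adjusted p = 0.016). It was not called without no disease replicate 2 (0.0539) or 3 (0.0728) or peak replicate 3 (0.0665). Leaving out 1 library changed the count of lower members to 2, 3 and 1 without no disease replicates 1, 2 and 3 and to 3, 5 and 2 without peak replicates 1, 2 and 3, and the 1 higher call was lost whichever 1 library was left out. With all 18 libraries in 1 fit 2 were lower.

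The counts of called channel genes depended on the libraries fitted. Of 18 voltage-gated calcium channel genes 2 were called higher and 0 lower (median 0.13, and -0.02 without peak replicate 2). Both calls were lost whichever 1 library was left out and with all 18 libraries in 1 fit. Of 47 potassium channel genes 7 were called lower and 0 higher, with a median of -0.09, close to that of all genes. Kcns3, a silent subunit that tunes Kv2 channels, was at 72.5 to 75.1 CPM with no disease and 50.8 to 56.9 CPM at peak (-0.46 ± 0.07, adjusted p = 0.00659). Its relative Kcns1 was at 22.9 to 28.3 CPM and 12.8 to 14.1 CPM (-0.98 ± 0.18, adjusted p = 0.0107), but the call was lost without no disease replicate 1 (0.0571) or 3 (0.0551) or with all 18 libraries in 1 fit (0.0697). The 7 potassium channel calls became 2, 4 and 2 without no disease replicates 1, 2 and 3, and 4, 4 and 5 without peak replicates 1, 2 and 3, and 2 with all 18 libraries in 1 fit. Scn10a, the sodium channel Nav1.8 of nociceptors, was at 665 to 778 CPM with no disease and 609 to 847 CPM at peak, with the groups overlapping (-0.03 ± 0.18, adjusted p = 0.937).

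Of 50 transmitter receptor genes 9 were called lower and 2 higher, with a median of -0.21. Htr3b, a subunit of the serotonin-gated channel, was at 20.7, 18.1 and 17.5 CPM and at 10.2, 11.8 and 10.3 CPM (-0.80 ± 0.11, adjusted p = 0.00411). Chrna6, a nicotinic acetylcholine receptor subunit, was at 71.5, 79.6 and 65.4 CPM with no disease and at 44.3, 40.5 and 42.5 CPM at peak (-0.77 ± 0.08, adjusted p = 0.00168). In both the groups were well apart, and both were called whichever 1 library was left out, but not with all 18 libraries in 1 fit (0.0875 and 0.21). Cckbr, the receptor of cholecystokinin and gastrin, went the other way, from 0.216, 0.168 and 0.168 CPM to 2.21, 4.24 and 3.82 CPM (4.17 ± 0.47, adjusted p = 0.00169). Its no disease level rested on 10 counts over the 3 libraries. The count of 9 lower members was 5, 6 and 5 without no disease replicates 1, 2 and 3 and 7, 8 and 5 without peak replicates 1, 2 and 3. It was 15 with the 6 libraries alone and 1 with all 18 libraries in 1 fit.

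The 16 pan-neuronal genes summed to 9764, 8951 and 9691 CPM with no disease and to 7539, 8700 and 7994 CPM at peak, and 2 of them were called lower (median -0.26), which became 0 without no disease replicate 1 or 3 and 1 without peak replicate 1 or 3. It was 7 with the 6 libraries alone, 5 with DESeq2 and 0 with all 18 libraries in 1 fit. Snap25, a SNARE protein of synaptic vesicle fusion, was at 1161, 1088 and 1228 CPM and then at 773, 775 and 789 CPM (-0.57 ± 0.10, adjusted p = 0.00949). Peak values of Snap25 lay close together and below all no disease values, but it lost the call without no disease replicate 1 (0.0518) or 3 (0.0617) or with all 18 libraries in 1 fit (0.487). Rbfox3, which encodes the neuronal marker NeuN, was at 43.3 to 48.1 CPM and 33.1 to 56.9 CPM (-0.05 ± 0.20, adjusted p = 0.895), and the peripheral neurofilament protein Prph was at -0.26 ± 0.12 (0.19). In bulk tissue, fewer cells of a type and less RNA per cell cannot be told apart. Of 33 synaptic vesicle genes 4 were called lower (median -0.16), with Rab3a, which prepares vesicles for release, at 182, 155 and 177 CPM and 108, 124 and 112 CPM (-0.58 ± 0.10, adjusted p = 0.00801). Rab3a was called whichever 1 library was left out, and its exons overlap those of Mpv17l2. Among all 33, the calls were 1, 3 and 1 without no disease replicates 1, 2 and 3 and 4, 2 and 2 without peak replicates 1, 2 and 3.

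Of 42 nuclear genes of the respiratory chain 8 were called lower and 0 higher, with a median of -0.26 and a range of -0.42 to 0.04. The summed level of the list was 6629, 6297 and 6887 CPM with no disease and 5429, 5278 and 5700 CPM at peak, without overlap. No member was called without no disease replicate 1 or 3 or peak replicate 1 or 3, and 6 and 3 were called without no disease replicate 2 and peak replicate 2. With DESeq2 16 were called. Of 21 glycolysis genes 4 were called lower (median -0.16), and 1, 3 and 0 without no disease replicates 1, 2 and 3 and 3, 2 and 2 without peak replicates 1, 2 and 3.

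**Figure D3:**
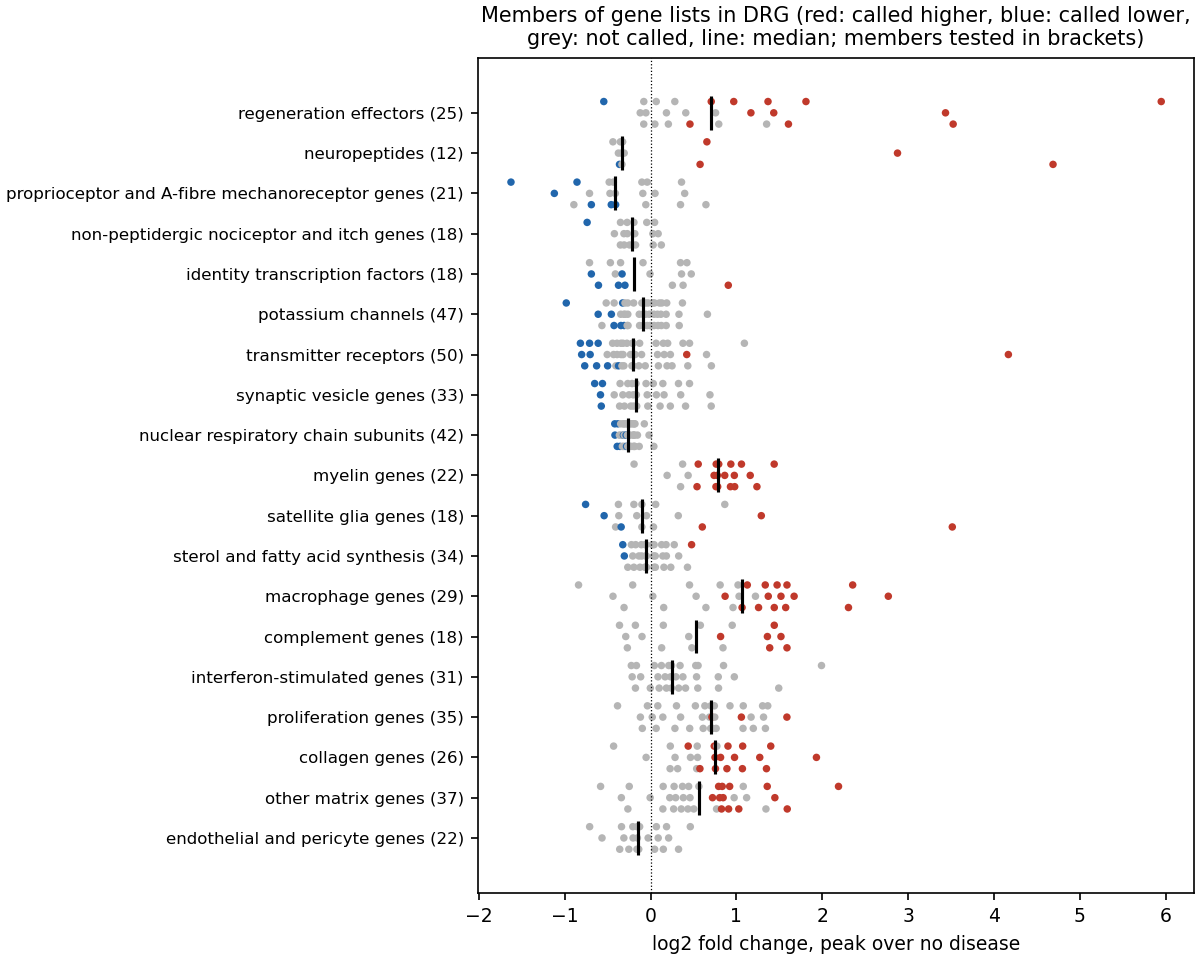
Log2 fold change from no disease to peak of the members of 19 gene lists in DRG, with 1 point per tested gene and a black line at the list's median. Myelin (median 0.78), macrophage (1.07) and collagen genes (0.75) lie mostly right of 0 and hold many red points, which are the genes called higher, whereas proprioceptor genes (-0.41) and respiratory chain genes (-0.26) lie mostly left of 0.

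Myelin genes were higher in the ganglion at peak. Of 22 tested, 17 were called higher and 0 lower, with a median of 0.78. The list summed to 4689, 6334 and 6926 CPM with no disease and to 9786, 10295 and 10991 CPM at peak, so no disease replicate 1 was the lowest and the groups were apart. Prx (ENSMUSG00000053198, chromosome 7, 27499324 to 27520214), which builds a scaffold beneath the myelin of Schwann cells, was at 264, 388 and 393 CPM and then at 632, 731 and 697 CPM (0.98 ± 0.14, adjusted p = 0.00491). The adhesion molecule Mag (1.24 ± 0.13) and the tight junction protein Cldn19 (1.16 ± 0.14) rose as well, and all 3 were called whichever 1 library was left out. Oligodendrocytes also make some myelin genes, and the part of the oligodendrocyte transcripts in the peak libraries in these counts was not tested. The count of 17 was 6, 10 and 12 without no disease replicates 1, 2 and 3 and 12, 12 and 10 without peak replicates 1, 2 and 3. Pmp22 was at 0.78 ± 0.15 (adjusted p = 0.0158), but 0.0574 without no disease replicate 1, 0.0562 without peak replicate 3 and 0.11 with all 18 libraries in 1 fit.

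Of 19 genes of the node and paranode 2 were called higher (median 0.28, and 0.06 without peak replicate 2). Gldn, which Schwann cells secrete to gather sodium channels at the node, was at 31.2, 39.6 and 46.0 CPM and then at 67.6, 85.7 and 92.4 CPM (1.07 ± 0.15, adjusted p = 0.00419). Dag1, the dystroglycan of the outer Schwann cell membrane, was at 110 to 130 CPM and then at 176 to 219 CPM (0.71 ± 0.10, adjusted p = 0.00386). Of 27 axon-glia adhesion and neuregulin genes 5 were called higher (median 0.12), with Itga6, a laminin receptor, at 130 to 154 CPM and 204 to 298 CPM (0.83 ± 0.13, adjusted p = 0.00767). Gldn, Dag1 and Itga6 did not overlap between the groups and were called whichever 1 library was left out. The count of 5 was 2, 4 and 2 without no disease replicates 1, 2 and 3 and 4, 3 and 3 without peak replicates 1, 2 and 3.

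Of 15 transcription factors of Schwann cells, 4 were called higher (median 0.30). Tead1, a DNA-binding partner of Yap and Taz, was at 27.4, 34.6 and 33.2 CPM and then at 62.8, 79.9 and 66.0 CPM (1.13 ± 0.12, adjusted p = 0.00135), called whichever 1 library was left out. Pou3f1, which drives Schwann cells into the promyelinating state, was at 1.63 to 2.80 CPM and then at 4.49 to 8.72 CPM (1.43 ± 0.31, adjusted p = 0.0224), but the call was lost without no disease replicate 1 (0.0837) or 3 (0.0896) or peak replicate 2 (0.0656). Egr2, the master regulator of myelination, was at 23.4 to 35.3 CPM and 32.6 to 40.5 CPM (0.22 ± 0.18, adjusted p = 0.478). Sox10 was at 34.0 to 39.3 CPM and 39.0 to 64.5 CPM (0.43 ± 0.16, adjusted p = 0.114), with the groups overlapping in both. The 4 calls became 1, 3 and 2 without no disease replicates 1, 2 and 3 and 4, 2 and 4 without peak replicates 1, 2 and 3.

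Satellite glia genes did not move together. Of 18 tested, 3 were called higher and 3 lower, with a median of -0.10. The higher calls became 1 without each no disease library in turn and 2, 2 and 4 without peak replicates 1, 2 and 3, and the lower calls 0, 2 and 1 and then 1, 1 and 0. Fabp7, the fatty acid-binding protein typical of these cells, was at 197, 139 and 137 CPM and then at 96.5, 92.1 and 91.0 CPM (-0.76 ± 0.15, adjusted p = 0.0184), but the call was lost without no disease replicate 1 (0.0536) or peak replicate 1 (0.0517) or 3 (0.0605), or with all 18 libraries in 1 fit (0.263). Gjc3, a connexin of peripheral glia, was at 40.2, 57.9 and 66.8 CPM and then at 125, 137 and 141 CPM (1.29 ± 0.17, adjusted p = 0.00386), called whichever 1 library was left out. Gfap was at 2.05, 2.07 and 0.842 CPM and then at 43.3, 7.29 and 6.32 CPM (3.51 ± 0.74, adjusted p = 0.0204). Peak replicate 1 was far above the other peak libraries for Gfap, and was also the library with the most spinal cord transcripts, whose part in this difference was not tested. Gfap was not called without no disease replicate 1 (0.0844), 2 (0.0673) or 3 (0.0947). It is also the 1 called gene of the 9 tested on the oligodendrocyte and spinal cord list. Of 34 genes of sterol and fatty acid synthesis, which myelin growth draws on, 1 was called higher and 2 lower (median -0.05), and the higher call was lost whichever 1 library was left out.

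Macrophage genes were higher at peak. Of 29 tested, 15 were called higher and 0 lower, with a median of 1.07. The list summed to 457, 421 and 437 CPM with no disease and to 861, 615 and 931 CPM at peak, with peak replicate 2 the lowest of its group and still above every no disease library. Trem2 (ENSMUSG00000023992, chromosome 17, 48346401 to 48354147), a lipid-sensing receptor of macrophages and microglia, was at 1.35, 1.45 and 0.954 CPM and then at 7.501, 8.41 and 9.84 CPM (2.77 ± 0.23, adjusted p = 0.00044). Cd68 (ENSMUSG00000018774, chromosome 11, 69664213 to 69666153), a glycoprotein of macrophage lysosomes, was at 1.35, 2.29 and 1.403 CPM and then at 8.17, 6.29 and 10.6 CPM (2.31 ± 0.35, adjusted p = 0.00586). Ms4a7 (2.35 ± 0.25) and the pore-forming protein Mpeg1 (2.07 ± 0.27) were among the 15 largest rises. All of these 4 genes were called whichever 1 library was left out, and none overlapped between the groups. Aif1, which encodes the macrophage protein Iba1, was at 1.13 to 1.80 CPM and 2.61 to 4.70 CPM (1.34 ± 0.33, adjusted p = 0.0367), but the call was lost without no disease replicate 1 (0.137), 2 (0.0964) or 3 (0.0796) or peak replicate 2 (0.0876) or 3 (0.104), or with all 18 libraries in 1 fit (0.0825). The count of 15 was 8, 9 and 9 without no disease replicates 1, 2 and 3 and 10, 13 and 9 without peak replicates 1, 2 and 3.

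Genes of lipid handling and lysosomes were called higher in 8 of 27 cases and lower in 0, with a median of 0.19. The other 19 were not called, among them the lysosomal genes Lamp1 (-0.04), Lamp2 (0.06), Ctsd (-0.05) and Ctsl (-0.06). Gpnmb, a glycoprotein of lipid-laden macrophages, was at 6.36, 8.05 and 9.37 CPM and then at 34.0, 30.0 and 53.8 CPM (2.31 ± 0.26, adjusted p = 0.00169). The lysosomal protease Ctss was at 15.6 to 18.7 CPM and then at 60.1, 41.9 and 70.7 CPM (1.78 ± 0.29, adjusted p = 0.00792), and the lectin Lgals3 at 15.3 to 17.5 CPM and then at 28.7 to 39.8 CPM (1.00 ± 0.17, adjusted p = 0.00787). Abca1, which exports cholesterol to lipoproteins, was at 226 to 254 CPM and then at 368 to 419 CPM (0.70 ± 0.10, adjusted p = 0.00441). The groups of each of these 4 genes were apart, and each was called whichever 1 library was left out.

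Complement genes were called higher in 6 of 18 cases and lower in 0, with a median of 0.53. The 3 chains of C1q, the starter of the classical pathway, stand next to each other on chromosome 4 and rose alike, with C1qa at 1.44 ± 0.24, C1qb at 1.52 ± 0.25 and C1qc at 1.59 ± 0.25. C1qa was at 15.5, 13.6 and 14.2 CPM and then at 42.3, 33.4 and 41.8 CPM (adjusted p = 0.00786). C3, on which the pathways meet, was at 9.28 to 10.5 CPM and then at 25.4 to 27.99 CPM (1.39 ± 0.22, adjusted p = 0.0074), and C4b at 62.6 to 72.6 CPM and then at 104 to 144 CPM (0.82 ± 0.12, adjusted p = 0.00562). None of these overlapped between the groups.

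Most of the other immune genes tested were not called, although the medians of their lists lay above that of all genes. Of 27 chemokines and cytokines tested 4 were called higher and 1 lower (median 0.52). Cxcl14 was at 0.539, 0.503 and 0.0561 CPM and then at 4.09, 4.98 and 6.91 CPM (3.83 ± 0.44, adjusted p = 0.00209). The monocyte attractant Ccl2 was at 0.701 to 1.12 CPM and then at 2.48 to 4.48 CPM (2.01 ± 0.35, adjusted p = 0.00893), but the call was lost without no disease replicate 1 (0.0531) or with all 18 libraries in 1 fit (0.17). The count of 4 higher was 9 with DESeq2, 8 without a filter on low counts, 7 with the 6 libraries alone and 2 without no disease replicate 1, and the 1 lower call was lost whichever 1 library was left out. Of 31 interferon-stimulated genes 0 were called (median 0.25), of 19 antigen presentation genes 1 (median 0.26) and of 16 granulocyte and mast cell genes 0 (median 0.72). The granulocyte median was -0.05 without peak replicate 3, in which these genes summed to 415 CPM against 135 to 232 CPM elsewhere, and the antigen presentation median was 0.12 and the interferon median 0.03 without peak replicate 2. Of 25 genes of T, NK and B cells only 13 had enough counts to be tested, and 2 of these were called higher, which became 0 without no disease replicate 2 or 3 or peak replicate 1 or 3. The 1 antigen presentation call was lost without no disease replicate 1 or 3 or peak replicate 2.

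Of 35 genes of dividing cells, 3 were called higher and 0 lower, with a median of 0.70 and members between -0.38 and 1.59. The count depended on the fit, with 9 higher when the 6 libraries were fitted alone, 8 without a filter on low counts and 7 with DESeq2. Mki67, an antigen of cycling nuclei, was at 19.9, 13.03 and 14.9 CPM with no disease and at 38.3, 20.7 and 42.1 CPM at peak (1.08 ± 0.36, adjusted p = 0.0987). Peak replicate 2, also the lowest for macrophage genes, lay just above the highest no disease library. When the 6 libraries were fitted alone Mki67 was called (0.0277). The 3 calls became 0, 0 and 1 without no disease replicates 1, 2 and 3 and 1, 2 and 1 without peak replicates 1, 2 and 3. Of 16 genes of the unfolded protein response 0 were called, of 23 of the integrated stress response 1, which was Atf3, and of 15 immediate early genes 0. Of 13 heat shock genes 2 were called lower and of 20 p53 and apoptosis genes 1 higher, and leaving out 1 library brought these counts to between 0 and 2 and to 0 or 1.

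Extracellular matrix genes were higher. Of 26 collagen genes 15 were called higher and 0 lower (median 0.75), and the list summed to 1937, 2001 and 2071 CPM with no disease and to 5005, 2975 and 3706 CPM at peak. Col5a2 (ENSMUSG00000026042, chromosome 1, 45374321 to 45503282), a chain that sets the width of collagen fibrils, was at 93.8, 95.1 and 103 CPM and then at 268, 230 and 272 CPM (1.40 ± 0.12, adjusted p = 0.00044). Col1a1, the main fibrillar collagen, was at 115, 125 and 127 CPM and then at 853, 230 and 319 CPM, so that peak replicate 1 stood far above the rest (1.93 ± 0.40, adjusted p = 0.0184). Col1a1 was not called without no disease replicate 1 (0.0902), 2 (0.0671) or 3 (0.0783). The 15 calls became 9 without each no disease library in turn, and 13, 15 and 11 without peak replicates 1, 2 and 3.

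Of 37 other matrix genes 13 were called higher and 0 lower, with a median of 0.56. Tnc, a glycoprotein that reappears in injured tissue, was at 7.28, 5.42 and 4.94 CPM and then at 31.6, 18.3 and 30.8 CPM (2.19 ± 0.24, adjusted p = 0.00163), and its exons overlap those of 8030451A03Rik. Thbs2, an astrocyte and fibroblast protein that promotes synapses, was at 19.9 to 23.1 CPM and then at 56.3 to 75.7 CPM (1.59 ± 0.16, adjusted p = 0.00132). The basement membrane proteoglycan Hspg2 was at 112, 149 and 147 CPM and then at 347, 433 and 334 CPM (1.45 ± 0.13, adjusted p = 0.000624). In all 3 genes the groups were well apart, and all were called whichever 1 library was left out. Of 29 proteases and inhibitors 8 were called higher and 0 lower (median 0.44). Adamts20 was at 25.8, 33.4 and 28.7 CPM and then at 75.0, 96.5 and 86.5 CPM (1.55 ± 0.12, adjusted p = 0.00044), and the protease inhibitor Timp1 at 0.839 to 1.18 CPM and then at 2.87 to 5.29 CPM (1.89 ± 0.32, adjusted p = 0.00841). With all 18 libraries in 1 fit Timp1 was not called (0.106). The count of 8 was 3, 5 and 4 without no disease replicates 1, 2 and 3 and 5, 8 and 5 without peak replicates 1, 2 and 3, and the count of 13 other matrix genes was 19 without peak replicate 2.

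Of 52 axon guidance genes 7 were called higher and 3 lower, with a median of 0.14. Sema6a, a transmembrane semaphorin, was at 16.3, 16.3 and 13.1 CPM and then at 40.1, 65.8 and 43.3 CPM (1.71 ± 0.21, adjusted p = 0.00257). The semaphorin receptors Plxnb3 (31.2 to 33.8 CPM against 50.7 to 62.2 CPM, 0.82 ± 0.09, adjusted p = 0.00169) and Plxnb1 (22.04 to 31.5 CPM against 41.6 to 55.7 CPM, 0.78 ± 0.14, adjusted p = 0.0114) rose as well. These 3 did not overlap between the groups and were called whichever 1 library was left out. The count of 7 was 3 without each no disease library in turn and 6, 4 and 4 without peak replicates 1, 2 and 3, and the count of 3 lower was 1 without each no disease library in turn and 2, 2 and 1 without peak replicates 1, 2 and 3. Of 22 genes of vessels and pericytes 0 were called (median -0.15).

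**Figure D4:**
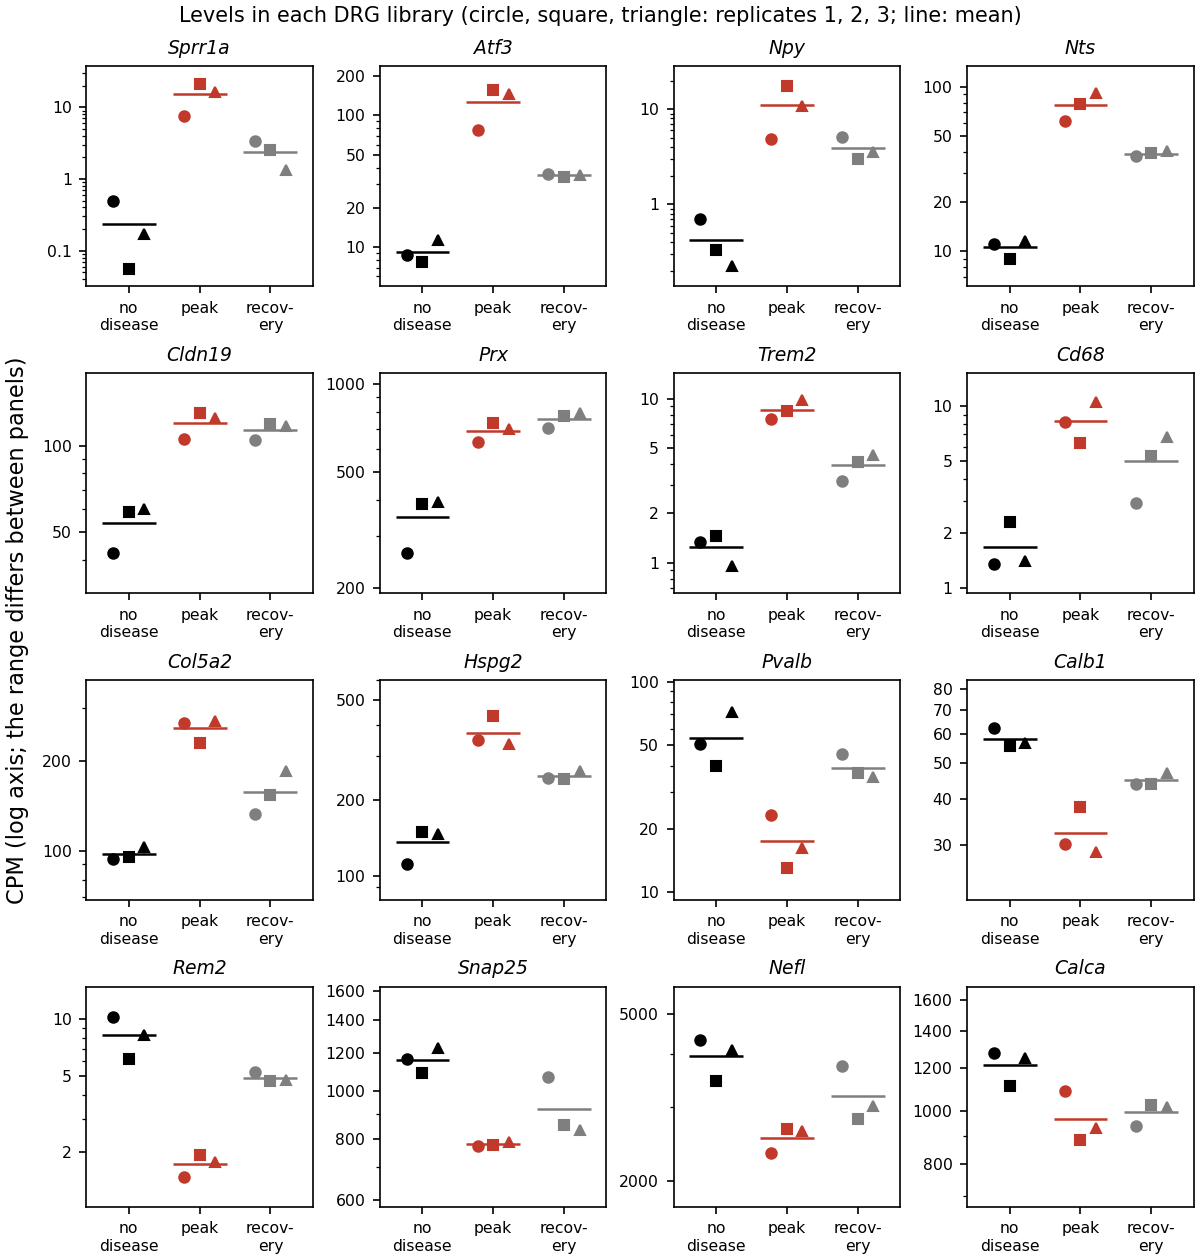
Levels of 16 genes in the 9 DRG libraries, in CPM on log axes whose range differs between panels, with 1 symbol per replicate and a line at the group mean. The injury genes Sprr1a, Atf3, Npy and Nts are highest at peak and lower at recovery, Prx is as high at recovery as at peak, and Pvalb, Calb1 and Rem2 are lowest at peak.

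Levels during recovery are given as a description, without a test. Atf3 was at 36.1, 34.1 and 35.1 CPM, between the peak and no disease libraries, and Sprr1a was there too, at 3.38, 2.54 and 1.31 CPM. Nts stood at 37.8, 39.5 and 40.5 CPM, and Pvalb at 45.3, 36.8 and 35.3 CPM. Prx remained high, at 703, 777 and 792 CPM, of which the lowest lies within the range of the peak libraries and the others above it. Recovery replicate 1 differed from the other recovery libraries in immune genes, with C1qa at 17.9 CPM against 37.5 and 35.4 CPM and Lyz2 at 74.6 CPM against 220 and 200 CPM. It lay near the no disease libraries for both genes.

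The change in DRG was set against that in sciatic nerve, which holds the axons of these neurons with their Schwann cells, in 1 fit of all 18 libraries. The difference between the tissues (DRG change minus nerve change) was called higher for 1637 genes and lower for 1146 of 17289 tested, which is 9.47% and 6.63%. The higher count was 1028 without DRG no disease replicate 1, and the lower count 752 without DRG no disease replicate 3. Atf3 rose by 3.74 in DRG and 1.55 in nerve (difference 2.19 ± 0.33, adjusted p = 0.000644). Sox11 was at 1.55 in DRG and -1.34 in nerve (difference 2.89 ± 0.59, adjusted p = 0.00442), and Csf1 at 1.31 and -0.78 (2.09 ± 0.24, adjusted p = 7.02e-05). The myelin genes differed as well. Prx was at 0.96 in DRG and -0.64 in nerve (1.60 ± 0.31, adjusted p = 0.00327) and Mbp at 0.75 and -0.42 (1.17 ± 0.25, adjusted p = 0.00634), and 14 of 22 myelin genes were called higher in this difference (medians 0.76 in DRG and -0.23 in nerve). In DRG the level of Prx remained below that of nerve at both stages, at 365 ± 76.6 and 712 ± 49.7 CPM against 2226 ± 664 and 1429.5 ± 400.4 CPM (SD, n = 3, scaled over 18 libraries).

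Macrophage genes differed between the tissues about as often as all genes, with 4 of 30 called against 16.1%, and their medians were 1.03 in DRG and 1.495 in nerve. For Trem2 the change was 2.75 in DRG and 3.77 in nerve (difference -1.02 ± 0.39, adjusted p = 0.0898), for Cd68 2.29 and 2.62 (-0.33 ± 0.44, 0.644) and for C1qa 1.42 and 1.70 (-0.27 ± 0.36, 0.651). Of the 4 called genes 3 were lower in the difference and 1 was higher. Lipid handling and lysosome genes stood lower in DRG in 15 of 27 cases, with medians of 0.17 in DRG and 1.07 in nerve, and for Gpnmb the difference was -1.50 ± 0.35 (adjusted p = 0.0106). Proliferation genes stood lower in 23 of 35 cases, with medians of 0.68 and 2.77 and Mki67 at 1.06 in DRG and 3.29 in nerve (-2.23 ± 0.46, adjusted p = 0.00487). Of 42 respiratory chain genes 22 stood lower, with medians of -0.28 and 0.21. The matrix gene Col5a2 was at 1.38 in DRG and 1.28 in nerve (difference 0.10 ± 0.17, adjusted p = 0.714). Some neuronal genes had low levels in nerve. The irritant-gated channel Trpa1, for example, was at 1.90 ± 2.82 CPM in nerve with no disease and at 0 in all peak nerve libraries, against 106 ± 2.20 and 88.8 ± 2.50 CPM in DRG (SD, n = 3).

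**Figure D5:**
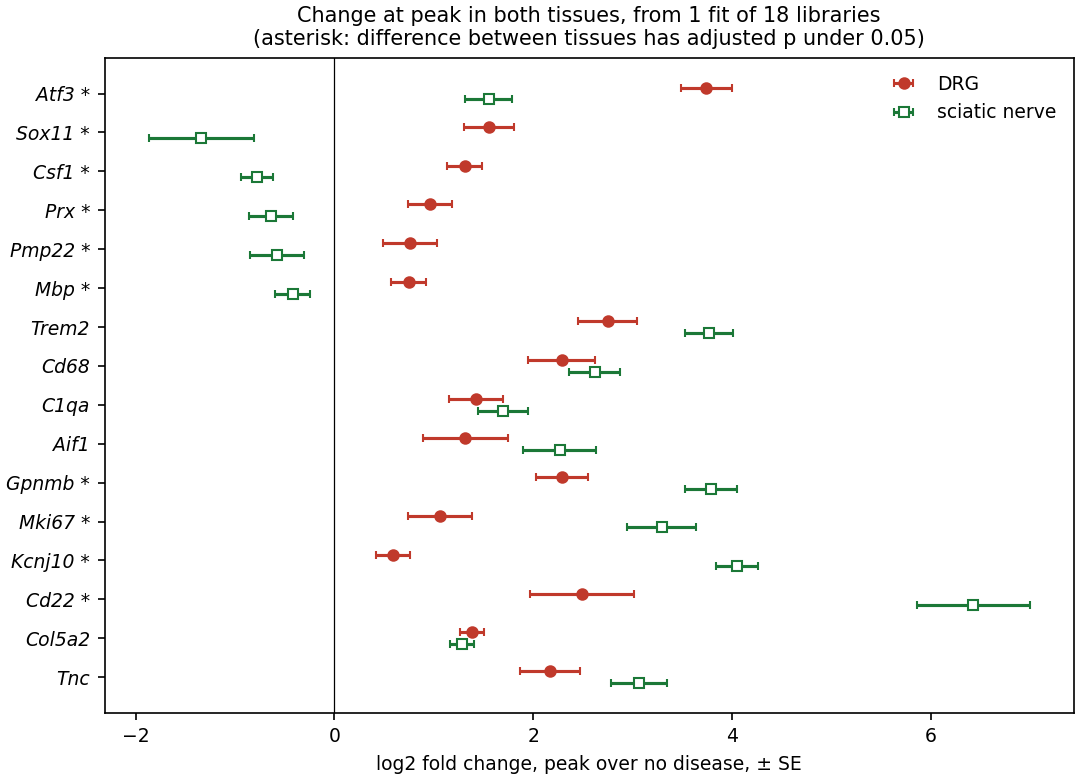
Log2 fold change from no disease to peak, with SE bars, for 16 genes in DRG (red circles) and sciatic nerve (green squares), from 1 fit of 18 libraries. Sox11, Csf1, Prx, Pmp22 and Mbp lie on opposite sides of 0 in the 2 tissues, Trem2, Cd68 and C1qa on the same side, and an asterisk marks a difference with adjusted p under 0.05.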

How the data were processed

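Bulk RNA-seq of 9 DRG and 9 sciatic nerve libraries was used. The authors deposited whole-number read counts for 28684 genes. Per the submitters' processing notes, the tools were Bowtie2, kallisto 0.44.0 and STAR 2.6.1a and the builds mm10 and GRCm38. The counting method and its strand setting were not given in any source used here. Without strand, reads of genes with overlapping exons cannot be told apart. RNA came from an extraction kit and libraries from a SMARTER kit, per the labels' protocols. The authors' deposited table, per the file headers, holds log2 fold changes and q-values, of which only the q-values and signs were counted.

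The 9 DRG libraries were fitted together in edgeR 4.0.16 (R 4.3.3) with filterByExpr, TMM scaling and the quasi-likelihood F test. SE is the log2 fold change over the root of F. A fit of 18 libraries tested DRG change minus nerve change. The alternatives were DESeq2 1.42.0, limma 3.58.1 (voom), RLE scaling, other filters, other sets of libraries, a replicate block, and leaving out each library. The procedure was also run on simulated counts with planted changes. That outcome is not given, and no result here rests on it. Promoters came from RefSeq (GRCm38.p6), and coordinates from GENCODE on GRCm38.

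The members and lists were chosen with earlier results of these data known. Genes are named by rule. Those are the 15 largest rises and falls with adjusted p under 0.05, at least 5 CPM and groups apart, up to 6 called and 3 abundant uncalled members of each list, a fixed set of marker genes, and the 5 largest tissue differences each way. Depth was 14887230 to 19172975 counts in the 6 libraries compared, so genes of a few counts are imprecise. Some results are not reported here.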

Additional observations from a re-analysis of the deposited data

Results flagged for a closer look

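The change at peak differed between DRG and sciatic nerve for 1637 genes in 1 direction (higher in DRG) and 1146 in the other, by the interaction term of edgeR's quasi-likelihood test over 18 libraries. The values below are DRG change minus nerve change on the log2 scale.

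The genes given here were named by rule and are not a ranking of all differences. Many came from the fixed set of marker genes, which holds many neuronal genes. Among the genes given, most of the largest positive differences were those of neuronal genes. Trpa1 was at 8.02 ± 2.20 (SE, adjusted p = 0.026), Chrna6 at 7.09 ± 1.88 and Gal at 5.97 ± 1.28, and these 3 had no count in any peak nerve library, so the fitted values depend on the prior count. Trpa1 was not called without nerve no disease replicate 1 (0.114). Scn10a was at 6.81, Calcb at 6.56, Tac1 at 6.21, Th at 5.53, Mrgprd at 5.23, Calca at 4.81 and Isl1 at 4.32. For these genes the change was -0.39 (Calcb) to -0.05 (Scn10a) in DRG and -6.95 (Calcb) to -4.63 (Isl1) in nerve. Their mean nerve levels were 1.17 (Th) to 25.3 CPM (Calca) with no disease and at most 0.719 CPM (Calca) at peak. The no disease nerve libraries spread widely (Calca 25.3 ± 26.2, Tac1 6.14 ± 6.06, Th 1.17 ± 0.849 CPM, SD, n = 3). Without nerve no disease replicate 1, Calcb (0.0577), Mrgprd (0.0948) and Isl1 (0.0566) were not called. Prph was at 2.62, Pvalb at 2.43 and Nefh at 2.18. Pvalb and Nefh each lost the call in several fits without 1 library.

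The injury genes Sox11 and Atf3 stood at 2.89 and 2.19, and Csf1 at 2.09. Among myelin genes Prx was at 1.60, Pmp22 at 1.34 and Mbp at 1.17. Pmp22 lost the call in several fits without 1 library. Negative differences, where the nerve changed more in the positive direction, were those of Mki67 at -2.23, Btc at -2.72, B3galt5 at -2.91, Kcnj10 at -3.47, Iqgap3 at -3.49 and Cd22 at -3.94.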

How the results depend on the processing

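With DESeq2 843 genes were lower at peak in DRG (main 529). Leaving out 1 library gave 195 to 473 higher and 119 to 307 lower genes, and for the difference between tissues 1028 to 1729 higher and 752 to 1367 lower. Without a filter on low counts 999 genes were higher and 1342 lower in that difference, and with RLE scaling 1396 and 1336, against 1637 and 1146. The total counts for the DRG comparison stayed within 1.5 times of the main ones under limma-voom, RLE scaling and both filters. They also did with the 6 libraries alone, all 18 libraries together and library sizes without ribosomal and mitochondrial genes. Library sizes also without AY036118, chosen after seeing the data, gave 704 higher and 565 lower genes. Counts over single lists moved more, also beyond those given beside the lists. With the 6 libraries alone 4 injury transcription factors were higher (main 2), 8 synaptic vesicle and 8 glycolysis genes were lower (main 4 each) and 5 satellite glia genes were lower (main 3). With all 18 libraries in 1 fit 0 glycolysis genes were lower and 2 neuropeptides higher (main 4). Same-numbered libraries did not deviate together (r = -0.098, 0.020 and 0.050), against -0.107 to 0.096 for libraries of unlike number. With 3 libraries per group these values cannot exclude a pairing. The replicate block gave 618 higher and 378 lower genes in DRG, and 1601 and 1064 for the tissue difference. Leaving out 1 library turned the direction of 3 abundant neuronal genes near 0, with log2 fold changes of -0.17 to 0.086 for Scn10a, -0.31 to 0.11 for Rbfox3 and -0.16 to 0.026 for Tubb3. The cause was not tested.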

Other observations

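Genes with long exons were called higher more often. In the fifth of tested genes with the shortest summed exon length (78 to 2211 bases) 2.46% were called higher and 3.31% lower, with a median log2 fold change of -0.05. In the fifth with the longest (7320 to 123179 bases) 8.28% were higher and 1.67% lower, with a median of 0.09. These shares are a description, and the part of length in any result was not tested.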
